A study of Mus musculus with 12 samples.

Results

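Tumor-associated fibroblasts were compared with the fibroblasts of the mammary gland of the same animals in a Drop-seq series of Brca1-deficient mice. A cell was taken as a fibroblast when at least 3 of the genes Dcn, Lum, Dpt, Mfap5 and Col3a1 were detected (1 UMI or more each) and these 5 genes together made up at least 0.5% of its UMIs, the unique molecular identifiers that count each captured RNA molecule once. The cells were thus chosen by the measured values of these genes, which are described below without a test. The rule took 362 tumor cells, 103 of 7690 from the tumor of mouse 1 (MT1) and 259 of 10314 from the tumor of mouse 2 (MT2). The same rule took 220 gland cells, 97 of 818 from mouse 1 (MG1) and 123 of 2335 from mouse 2 (MG2), so that 582 of the 21157 cells of the series entered.

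Fibroblasts make and remodel the extracellular matrix, the mesh of collagens, glycoproteins and proteoglycans between cells. In the mammary gland they lie around the ducts and in the fat pad, and cells along vessels and fascia (adventitial fibroblasts, with Pi16, Cd34 and Clec3b) are often described as a separate and less specialised state. In tumors fibroblasts are known for states that deposit collagen and contract (myofibroblast-like, with Acta2, Postn and Lrrc15) and for states that secrete cytokines.

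Both mice carried MMTV-Cre, a Cre recombinase under a viral promoter active in mammary epithelium, and Brca1 flox/flox alleles. Their strain is given as mixed, of C57BL/6 and 129/Sv. The Cre is thus aimed at the epithelium and not at fibroblasts, glands and tumors share the genotype, and no gland of a mouse without the deletion is part of the comparison. MG1 and MG2 are the fourth mammary glands of animals that bore a tumor (an age is not given in the labels), and MT1 and MT2 are those tumors. All suspensions were digested with collagenase, hyaluronidase and dispase and depleted of hematopoietic and endothelial cells with an epithelial enrichment kit, so the share of fibroblasts is that of the enriched suspension. There were 12 libraries, 2 of MG1, 2 of MG2, 5 of MT1 and 3 of MT2, each of 1 tissue of 1 mouse. Their p-values measure the spread between libraries and not between the 2 mice.

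The libraries held between 12 and 103 fibroblasts and between 18348 and 324198 UMIs of these cells. Over a group, the fibroblast UMIs came to 410971 in MG1 and 326352 in MG2 against 233043 in MT1 and 772339 in MT2, and the median fibroblast had 3281, 2097, 1842 and 2393 UMIs. The fibroblasts made up 11.9% of the cells in MG1 (exact 95% Clopper-Pearson interval 9.72 to 14.3), 5.27% in MG2 (4.40 to 6.25), 1.34% in MT1 (1.09 to 1.62) and 2.51% in MT2 (2.22 to 2.83). These intervals cover counting error only. By library the share was 10.8% and 19.05% in MG1, 4.90% and 5.64% in MG2, 1.46%, 2.59%, 1.04%, 1.38% and 1.11% in MT1 and 3.88%, 1.35% and 3.23% in MT2. Libraries of all cells shared between 0 and 7 cell barcodes over 66 pairs, and no fibroblast barcode was shared. Brca1 itself had 0 and 2 UMIs in the fibroblasts of MG1 and MG2 and 1 and 4 UMIs in those of MT1 and MT2, too few to test.

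The label was checked on 12 fibroblast genes outside the rule (Col1a1, Col1a2, Pdgfra, Gsn, Serping1, Fbln1, Clec3b, Col5a1, Col6a1, Col6a2, Pcolce and Mmp2). Their summed level, in CPM (UMIs of the genes scaled to the total UMIs of the group), was 15098 in the chosen cells of MG1 against 583 in the other cells of the same libraries, and 19654 against 205 in MG2. It was 21284 against 380.1 in MT1 and 24698 against 4567 in MT2. In MG1, MG2 and MT1 each of the 12 genes was higher in the chosen cells. The gap was the smallest in MT2, where the other cells also carried Col1a2 at 2339 CPM and Sparc at 1054 CPM. There Gsn, at 170.9 CPM in the chosen and 172.9 in the other cells, and Pcolce, at 382 and 453, were not above the other cells, and Mmp2 was at 902 against 603. Of the rule genes, the other MT2 cells held Dcn at 765 CPM and Col3a1 at 200, detected in 78.9% and 21.1% of them. Lum, Dpt and Mfap5 were at 1.70, 0.502 and 1.03 CPM there. In MT2 125 cells reached 0.5% with only 2 of the 5 genes. Whether mesenchymal tumor cells were among the chosen cells was not tested. For the cells just inside and just outside the bound of 0.5%, the 5 genes made up 0.510% and 0.378% of UMIs in MG1, 0.539% and 0.471% in MG2, 0.531% and 0.499% in MT1, and 0.515% and 0.488% in MT2.

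The 5 genes of the rule did not have the same balance in gland and tumor. Dcn (decorin, a small proteoglycan on collagen fibrils) was at 7657 CPM in MG1 and 5607 in MG2 and at 3012 in MT1 and 2979 in MT2, and Dpt (dermatopontin, another fibril-associated protein) was at 2596, 1744, 695 and 373. Col3a1 (the chain of type III collagen) ran the other way, at 1397, 6331, 12461 and 15579 CPM. Lum (lumican) was at 416, 941, 944 and 1132, and Mfap5 (a microfibril protein) at 613, 686, 2515 and 697, high in MT1 alone. Dpt was detected in 93.8% and 89.4% of the chosen gland cells and in 42.7% and 45.6% of the chosen tumor cells. Col3a1 was detected in 69.1% and 94.3% of the gland and in all of the tumor cells.

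The 2 libraries of MG1 stand apart from each other. Replicate 2, with 20 fibroblasts, had Col3a1 at 76.7 CPM against 1924 in replicate 1, Postn at 17.0 against 1829, Col1a1 at 76.7 against 838 and Col6a5 at 0 against 1001. It had more Cxcl13, at 4680.1 against 872 CPM. Where leaving out either library moved a called log2 change of mouse 1 by over 1.5 times, or ended its call, the value without it is given. Without a library its group has 1 left, which is then assumed to vary like the other groups.

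RNA of the other cells was read in the fibroblasts before any comparison, with epithelial markers in the glands and MT1 and with 50 genes of the other MT2 cells that had 0 UMIs in gland fibroblasts. The 50 include cell cycle genes such as Ccna2, Tk1 and Nek2, which dividing fibroblasts would also hold. The median ratio of these genes, fibroblasts over other cells, was 10.8% in MG1 and 9.30% in MG2, and higher in the tumors with 20.5% in MT1 and 30.8% in MT2. The highest library was MT2 replicate 2 with 52.6%. Capza2 (an actin-capping subunit that marks the MT1 tumor cells) was at 225 and 179 CPM in the MG1 libraries, 116 and 217 in MG2, 6867, 2555, 3342, 2982 and 2502 in those of MT1 and 238, 386 and 252 in MT2. Its level in the other cells of MT1 was 11748 CPM. Grem1 (a secreted BMP antagonist made by fibroblasts and by the MT2 tumor cells) was at 0 in MG1 and 0 and 11.1 in MG2, and in the tumors at 109, 34.3, 49.9, 52.9 and 227 in MT1 and 392, 531 and 486 in MT2, against 4.61 CPM in the other cells of MT1 and 974 in those of MT2. Capza2 in MT1 fibroblasts was thus below the tumor cells around them, and Grem1 was above them in MT1 and below them in MT2.

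**Figure D1:**
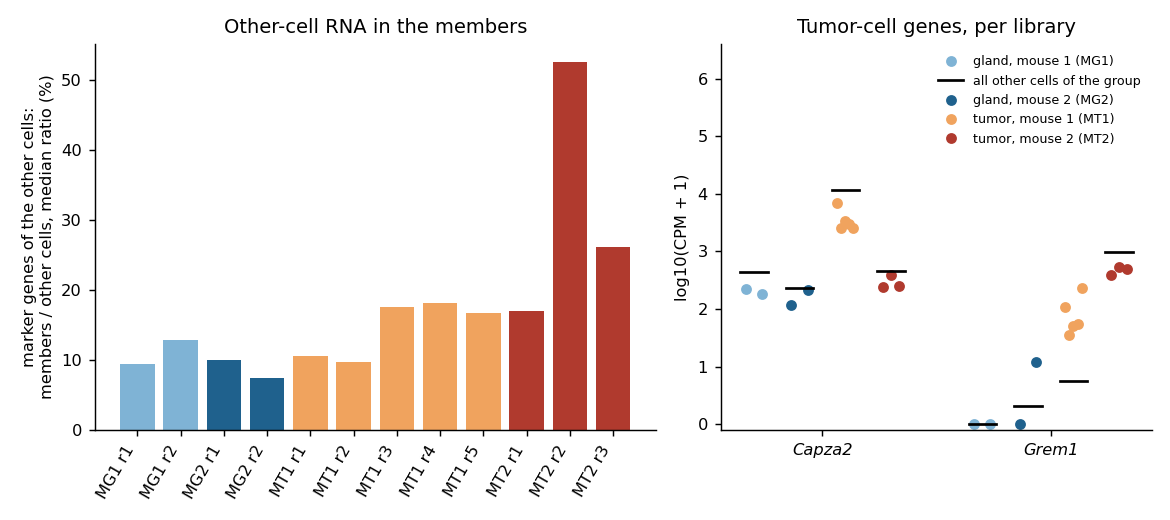
RNA of other cells in the fibroblasts. Left, bars give the median ratio in percent of the CPM of other-cell marker genes in the fibroblasts to that in the other cells, for each library, with MT2 replicate 2 highest at 52.6%. Right, points give Capza2 and Grem1 in the fibroblasts of each library as log10(CPM + 1) and black lines the other cells of the group, and the MT1 points of Capza2 lie under their line of 11748 CPM.

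Of 14 luminal epithelial markers, the summed level in the fibroblasts was 2076 CPM in MG1 (libraries 1951 to 2387), 1866 in MG2 (1578 to 2221), 4025 in MT1 (2658 to 6298) and 249.9 in MT2 (182.0 to 419), with 4 of the 14 at 0 in MT2. The 6 basal markers summed to between 5.18 and 94.9 CPM and the 8 endothelial markers to between 12.9 and 94.9 CPM over the groups (up to 436 in 1 MT1 library), with Cldn5 and Tie1 at 0 in all 4. The 7 mural markers summed to 31.6, 119.5, 98.7 and 6.47 CPM in MG1, MG2, MT1 and MT2, and the 4 Schwann cell markers to 114, 3.06, 55.8 and 0. Of 9 immune markers, 8 were at 0 in each of MG1, MG2 and MT1, while in MT2 the list reached 133 CPM (libraries 9.25 to 285), most of it from Lyz2 with 75 UMIs, against 107 CPM in the other MT2 cells. The tumor RNA list (Capza2, Grem1, Met, St7, Prl2c2 and Prl2c3) summed to 279.8, 224, 4278 and 796 CPM. Each comparison was therefore also run with this RNA subtracted and on the low-background subset, the fibroblasts of each library up to the median of its share, and where a named gene lost its call in a mouse under either, the value is given beside it. The low-background subset has fewer genes to test. Named genes not tested there include Scg3, Prex2, C7, Hmcn2, Comp, Bdkrb1, Col6a5 and Nov, so for them a missing value does not mean a kept call. In the low-background subset, Capza2 in MT1 was at 1156 CPM and the ratio of summed markers was 5.12% in MT1 and 8.51% in MT2, against 25.2% and 33.4% over all fibroblasts. In the glands it was 4.81% against 11.6% in MG1 and 0.565% against 9.79% in MG2, and the subset was chosen by this share. Doublets (2 cells in 1 droplet) were not removed, and whether the RNA was free or came from doublets was not tested.

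Of 3500 genes tested, 509 (14.5%) were higher and 640 (18.3%) lower in MT1 than in MG1 fibroblasts, by edgeR's quasi-likelihood F test over libraries with Benjamini-Hochberg adjusted p under 0.05. In mouse 2, 288 genes (8.23%) were higher and 407 (11.6%) lower in MT2 than in MG2 fibroblasts. In both mice 151 genes (4.31%) were higher and 236 (6.74%) lower, of which 2 lower genes belong to the rule, and 14 genes were called with opposite signs. These counts are over all genes of the fit, the 5 rule genes included, from which nothing is read. Without them 506 genes were higher and 638 lower in MT1 and 288 higher and 405 lower in MT2. Averaged over the mice, 701 genes (20%) were higher and 794 (22.7%) lower. Without MG1 replicate 1, mouse 1 had 318 genes higher and 795 lower. The count of mouse 2 was 695, and 601, 518 and 466 without MT2 replicate 1, 2 or 3. It also fell without either MG2 library, where 1 library is left in that group, and the cause was not tested. With other-cell RNA subtracted, mouse 1 had 863 calls (841 of them shared) and mouse 2 had 420 (378 shared).

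The 10 genes with the highest mean rise in the tumor fibroblasts of both mice (called in both mice, at least 50 CPM in both tumors, no overlap of libraries, and above the other cells of the same tumors) were Mmp13, Prss35, Hs6st2, C1qtnf3, Ddah1, Tnc, Cthrc1, Lrrc15, Serpine2 and Col8a1. They come from 56 genes that met these conditions. Library values are listed from replicate 1 on.

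Mmp13 (collagenase 3, which cleaves fibrillar collagen, chromosome 9, 7272514 to 7283331 in GRCm38, plus strand) had 0 UMIs in both MG1 libraries and 6.83 and 0 CPM in MG2, against 54.5, 68.6, 183, 17.6 and 227 in MT1 and 4392, 1968 and 4367 in MT2. It was at least 15.3-fold higher in MT1, taking 3 counts as the limit for the MG1 group at 0 (adjusted p 0.000525), and 1247-fold higher (95% counting interval 224 to 49280) in MT2, where MG2 had a single UMI (adjusted p 1.03e-08). The 3 MT2 libraries lay above all of MT1, and the other cells of MT2 had 12.2 CPM. Tnc (tenascin-C, an anti-adhesive matrix glycoprotein, chromosome 4, 63959785 to 64047015, minus strand) was at 13.6 and 17.0 CPM in MG1 and 259.6 and 278 in MG2 against 1526, 2229.5, 2262, 2082 and 2527 in MT1 and 1635, 839 and 1281 in MT2. The tumors did not overlap with either gland, with log2 fold changes of 6.84 (SE 0.50) in mouse 1 and 2.10 (SE 0.35) in mouse 2 (adjusted p 1.53e-09 and 8.35e-05). The gland levels lay further apart between the mice than the tumor levels.

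Lrrc15 (a membrane protein used as a marker of myofibroblast-like tumor fibroblasts, chromosome 16, 30269302 to 30283256, minus strand) was at 6.81 and 0 CPM in MG1 and 102 and 22.2 in MG2, and in the tumors at 327, 532, 649, 318 and 429.6 in MT1 and 389, 185 and 293 in MT2. MT1 was 97.9-fold higher (95% counting interval 26.5 to 818) (2 UMIs in MG1, adjusted p 1.97e-06), and MT2 had a log2 fold change of 2.16 (SE 0.50) (adjusted p 0.00284), which was 3.52 without MG2 replicate 1 and without MG2 replicate 2 1.36 with adjusted p 0.187. The other tumor cells held 2.33 CPM of Lrrc15 in MT1 and 0.717 in MT2. Cthrc1 (a secreted protein with a collagen repeat, chromosome 15, 39076932 to 39087121, plus strand) was at 6.81 and 8.52 CPM in MG1 and 20.5 and 66.7 in MG2 against 599.5, 274, 333, 353 and 1188 in MT1 and 330.0, 313 and 368 in MT2. It was 67.0-fold higher (95% counting interval 22.4 to 329.8) in mouse 1 and had a log2 fold change of 2.75 (SE 0.54) in mouse 2 (adjusted p 3.2e-06 and 0.00063). Both genes were low or near 0 in each gland and above it in every tumor library.

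Prss35 (a serine protease-like secreted protein, chromosome 9, 86743649 to 86758443) and Hs6st2 (a heparan sulfate 6-O-sulfotransferase, chromosome X, 51387212 to 51681856) had 0 UMIs in all 4 gland libraries. Prss35 was at 109, 223, 49.9, 35.3 and 177 CPM in MT1 and 133, 50.3 and 159.7 in MT2, at least 15.9-fold and 13.4-fold higher. Hs6st2 was at 54.5, 206, 216, 52.9 and 101 in MT1 and 105, 67.1 and 59.4 in MT2, at least 19.4-fold and 8.73-fold higher. Every tumor library held both transcripts, with adjusted p between 0.000113 and 0.000905. Serpine2 (protease nexin-1, an inhibitor of thrombin and plasminogen activators, chromosome 1, 79794197 to 79861180) was at 23.8 and 51.1 CPM in MG1 and 212 and 83.3 in MG2, and in the tumors at 599.5, 463, 1031, 935 and 809 in MT1 and 2094, 1319.7 and 2376 in MT2. Its log2 fold changes were 4.25 (SE 0.51) and 3.61 (SE 0.43) (adjusted p 2.1e-06 and 1.19e-06), and the other cells of MT1 held 712 CPM, close to the MT1 fibroblasts. Without MG1 replicate 1 or 2 the first was 3.38 or 4.63, and without MG2 replicate 1 or 2 the second was 4.37 or 3.03.

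Col8a1 (a chain of the network-forming type VIII collagen, chromosome 16, 57624258 to 57754737) was at 20.4 and 136 CPM in MG1 and 34.2 and 22.2 in MG2 against 545, 1098, 1613, 741 and 1112 in MT1 and 515, 263 and 330.5 in MT2. It rose by log2 3.77 (SE 0.56) and 3.59 (SE 0.64) (adjusted p 2.6e-05 and 0.00021), and the mouse 1 value was 2.43 without MG1 replicate 1 and 5.30 without MG1 replicate 2. C1qtnf3 (a secreted adipokine of the C1q and TNF-related family, chromosome 15, 10952332 to 10980150) had 0 UMIs in MG1 and was at 27.3 and 5.56 CPM in MG2, 1526, 875, 466, 1076 and 885 in MT1 and 108, 55.9 and 171 in MT2. MT1 was at least 119-fold higher (adjusted p 9.02e-08). In mouse 2 the log2 fold change was 2.70 (SE 0.67) (adjusted p 0.00534), and 1.88 with adjusted p 0.187 without MG2 replicate 2. Ddah1 (an enzyme that degrades methylated arginines, inhibitors of nitric oxide synthesis, chromosome 3, 145758675 to 145894277) had 0 UMIs in MG1, 27.3 and 22.2 CPM in MG2, 164, 85.8, 149.7, 194 and 227 in MT1 and 188, 129 and 96.5 in MT2. It was at least 21.7-fold higher in MT1 (adjusted p 1.09e-05) and rose by log2 2.34 (SE 0.53) in MT2 (adjusted p 0.00258), or 2.17 with adjusted p 0.0853 without MG2 replicate 2.

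**Figure D2:**
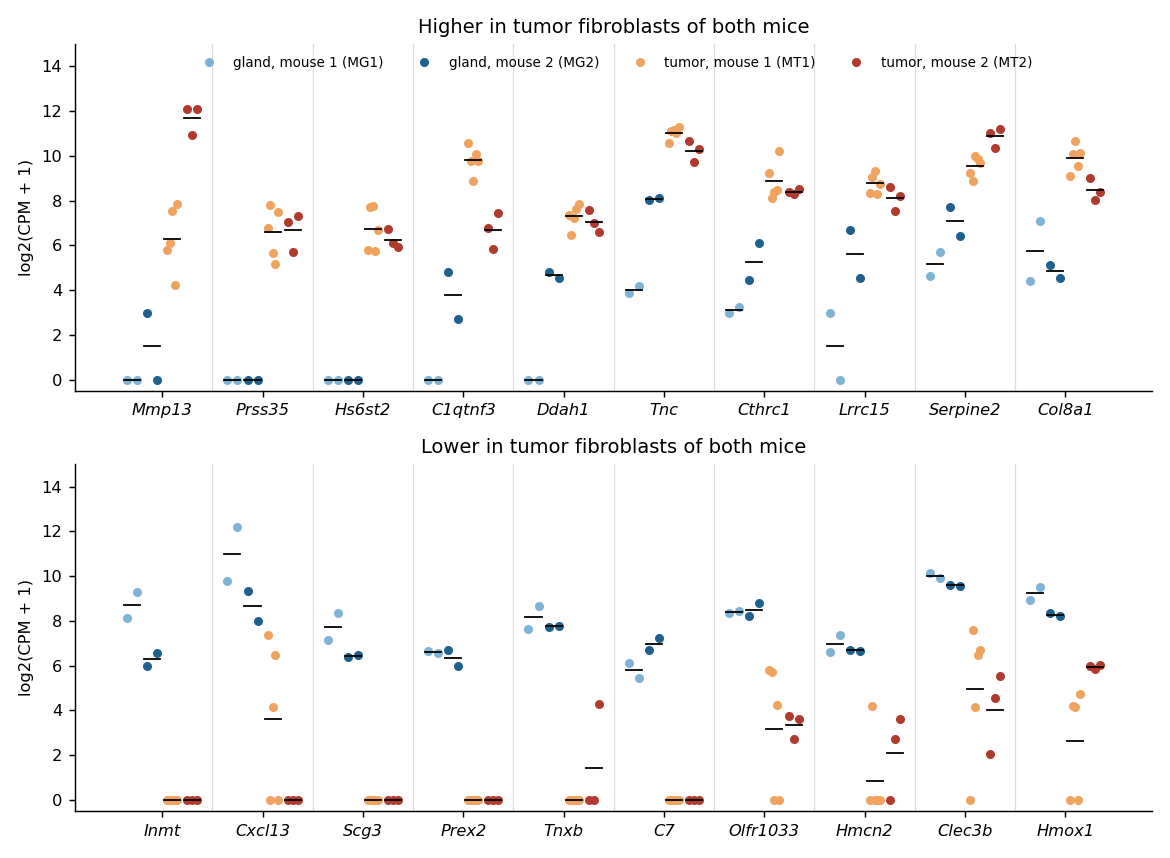
The 10 genes with the highest (top) and lowest (bottom) mean change over both mice. Points are libraries, in log2(CPM + 1) of the summed fibroblasts, and black lines are the means of a group on that scale. In every gene the tumor points of a mouse lie apart from the gland points of that mouse, and Inmt, Scg3, Prex2 and C7 are at 0 in all 8 tumor libraries.

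The 10 genes with the lowest mean change (called in both mice, at least 50 CPM in both glands, no overlap of libraries, and above the other cells of the same glands, from 161 genes) were Inmt, Cxcl13, Scg3, Prex2, Tnxb, C7, Olfr1033, Hmcn2, Clec3b and Hmox1. Inmt (indolethylamine N-methyltransferase, chromosome 6, 55170626 to 55175043, minus strand) was at 276 and 622 CPM in MG1 and 61.5 and 94.4 in MG2 and had 0 UMIs in all 8 tumor libraries. It was at least 29.1-fold lower in MT1 and 20.5-fold lower in MT2 (adjusted p 2.1e-06 and 6.16e-05). Scg3 (secretogranin III, chromosome 9, 75643189 to 75684056), Prex2 (an exchange factor for the GTPase Rac, chromosome 1, 10993465 to 11303681) and C7 (a component of the complement attack complex, chromosome 15, 4988762 to 5063740) were likewise at 0 in every tumor library. Scg3 had 139.6 and 324 CPM in MG1 and 82.0 and 88.9 in MG2, at least 14.9-fold and 22.1-fold lower in the tumors. Prex2 had 98.8 and 93.8 in MG1 and 102 and 61.1 in MG2, at least 7.56-fold and 20.5-fold lower. C7 had 68.1 and 42.6 in MG1 and 102 and 150.0 in MG2, at least 4.73-fold and 33.1-fold lower. Their adjusted p lay between 1.56e-05 and 0.00323, and for mouse 1 the depth of the MT1 fibroblasts limits how low the tumor level can be placed.

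Clec3b (tetranectin, a plasminogen-binding lectin of resting and adventitial fibroblasts, chromosome 9, 123150946 to 123157432) was at 1120.3 and 963 CPM in MG1 and 772 and 756 in MG2, and in the tumors at 0, 189, 16.6, 88.2 and 101 in MT1 and 3.08, 22.4 and 44.6 in MT2. The log2 fold changes were -3.82 (SE 0.46) and -5.17 (SE 0.51) (adjusted p 1.98e-06 and 8.4e-08), with the values of the tumors all under those of the glands. Tnxb (tenascin-X, a matrix protein that spaces collagen fibrils, chromosome 17, 34670535 to 34719815) was at 198 and 409 CPM in MG1 and 212 and 217 in MG2, at 0 in MT1 and at 0, 0 and 18.6 in MT2. It was at least 20.0-fold lower in MT1 (adjusted p 1.67e-05) and fell by log2 4.99 (SE 0.66) in MT2 (adjusted p 1.19e-05), where replicate 3 held all of its UMIs (without it the group is at 0 and the fitted change -7.90). Tnc and Tnxb, both tenascins, thus moved in opposite directions in both mice. Cxcl13 (a chemokine that attracts B cells, chromosome 5, 95956951 to 95961068) was at 872 and 4680.1 CPM in MG1, 642 and 250.0 in MG2, 164, 0, 16.6, 88.2 and 0 in MT1 and 0 in MT2. It dropped by 6.41 (SE 0.65) on the log2 scale in mouse 1 (adjusted p 3.68e-07, -4.80 without MG1 replicate 2) and was at least 109.65-fold lower in MT2 (adjusted p 2.23e-06).

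Hmox1 (heme oxygenase 1, chromosome 8, 75093621 to 75100589) was at 490.4 and 725 CPM in MG1 and 321 and 294 in MG2 against 0, 17.2, 16.6, 0 and 25.3 in MT1 and 61.7, 55.9 and 63.1 in MT2. MT1 was 43.3-fold lower (95% counting interval 14.6 to 211) (3 UMIs in MT1), and MT2 fell by log2 2.45 (SE 0.35) (adjusted p 1.56e-08 and 1.24e-05). In MT2 the other cells held 57.6 CPM, the same range as the fibroblasts. Olfr1033 (named as an olfactory receptor, chromosome 2, 86020633 to 86045171) was between 294 and 439 CPM in the gland libraries and between 0 and 54.5 in the tumor libraries, with log2 fold changes of -4.16 (SE 0.52) and -5.17 (SE 0.48). Hmcn2 (hemicentin 2, a matrix protein, chromosome 2, 31314415 to 31460738) was between 95.3 and 162 CPM in the glands and at most 17.2 CPM in any tumor library (adjusted p 0.000275 and 8.7e-05).

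The promoters of 4 of these genes are shown as examples of the genes called in both mice. Mmp13, Tnc and Lrrc15 stand for the higher genes and Cxcl13 for the lower ones. Each is the 250 bases before a RefSeq start site in GRCm38.p6, written 5′ to 3′ on the strand of the gene, and capitals mark matches on either strand to TATAAA (the TATA box), TGANTCA (the AP-1 site, bound by Fos and Jun proteins), GGGCGG (the GC box) and CATTCC (the TEAD site). No matches overlapped. For Tnc the first of 2 listed start sites was used.
Mmp13 (chr9:7272264-7272513, plus strand): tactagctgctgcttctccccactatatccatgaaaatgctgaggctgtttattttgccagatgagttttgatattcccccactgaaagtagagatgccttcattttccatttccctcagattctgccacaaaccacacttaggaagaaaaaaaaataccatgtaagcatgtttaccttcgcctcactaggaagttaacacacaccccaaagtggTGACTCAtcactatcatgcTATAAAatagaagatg
Tnc (chr4:64047016-64047265, minus strand): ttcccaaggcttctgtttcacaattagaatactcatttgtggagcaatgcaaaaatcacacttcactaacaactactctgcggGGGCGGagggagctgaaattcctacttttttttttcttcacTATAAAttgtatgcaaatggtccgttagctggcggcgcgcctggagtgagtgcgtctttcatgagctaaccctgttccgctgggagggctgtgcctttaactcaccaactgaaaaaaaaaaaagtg
Lrrc15 (chr16:30283255-30283504, minus strand): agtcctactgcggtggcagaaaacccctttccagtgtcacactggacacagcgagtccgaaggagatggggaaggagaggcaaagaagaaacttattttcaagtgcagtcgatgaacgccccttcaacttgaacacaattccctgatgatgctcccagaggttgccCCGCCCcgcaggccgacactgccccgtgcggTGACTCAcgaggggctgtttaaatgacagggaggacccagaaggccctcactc
Cxcl13 (chr5:95956689-95956938, plus strand): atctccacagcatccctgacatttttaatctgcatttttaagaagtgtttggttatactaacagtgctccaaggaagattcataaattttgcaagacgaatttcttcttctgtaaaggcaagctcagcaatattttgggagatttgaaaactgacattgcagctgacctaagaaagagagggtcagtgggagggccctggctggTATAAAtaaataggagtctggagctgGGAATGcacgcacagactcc

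In the Mmp13 promoter an AP-1 site began 35 bases before the start site and a TATA box 16 bases before it. The Lrrc15 promoter held an AP-1 site 53 bases and a GC box 84 bases before the start, and the Tnc promoter a TATA box at 126 and a GC box at 167 bases. The Cxcl13 promoter held a TATA box at 46 bases and a TEAD site, on the other strand, at 20 bases. Promoters of this length were counted for 27025 genes. Of these genes, 6.87% held an AP-1 site, 12.97% a TATA box, 12.6% a TEAD site and 32.9% a GC box. Among the tested genes with a counted promoter (2643 of 3500), the shares were 5.07%, 7.95%, 10.0% and 63.3%. A gene outside these counts is not thereby shown to lack a promoter. Of the 151 genes higher in both mice 115 had a counted promoter, with shares of 6.96%, 14.8%, 14.8% and 64.3%. Of the 234 lower genes outside the rule 169 had one, with shares of 10.1%, 11.8%, 11.2% and 56.2%. A match is a run of letters and not a measured binding site.

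Of 24 tested genes of fibrillar collagens and the enzymes that process them (26 in the list), 15 rose and 1 fell in MT1, and 8 rose, 2 fell and 14 were not called in MT2, beside 14.5% and 18.3%, and 8.23% and 11.6%, of all genes, with median log2 fold changes of 1.44 and 0.74, where all tested genes outside the rule had medians of -0.00 and 0.06. With other-cell RNA subtracted the counts were 15 and 1 in mouse 1 and 10 and 2 in mouse 2, and in the low-background subset 14 and 1, and 4 and 2. In both mice 5 rose and 1 fell. Col12a1 (type XII collagen, which binds to the surface of fibrils, chromosome 9, 79598991 to 79718831) was at 23.8 and 85.2 CPM in MG1 and 328 and 133 in MG2, and in the tumors at 273, 960.4, 865, 776 and 909.8 in MT1 and 2693, 984 and 1667 in MT2. It rose by log2 3.83 (SE 0.59) and 2.85 (SE 0.49) (adjusted p 4.03e-05 and 0.000125), with 2.70 in mouse 1 without MG1 replicate 1. Loxl3 (a lysyl oxidase that crosslinks collagen) was at 3.41 and 25.6 CPM in MG1, 20.5 and 11.1 in MG2 and between 70.6 and 216 in the tumor libraries. Its changes of log2 3.32 (SE 0.68) and 2.83 (SE 0.61) (adjusted p 0.000708 and 0.00151) lost their call without MG1 replicate 1 (1.82, adjusted p 0.0829) and without MG2 replicate 2 (2.41, adjusted p 0.0813). The member that fell in both was Pcolce2 (an enhancer of procollagen C-proteinase), by log2 2.94 (SE 0.46) and 2.96 (SE 0.51) (adjusted p 4.62e-05 and 0.000125), with -7.55 in mouse 2 when other-cell RNA was subtracted.

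The chains of type I collagen passed the test in mouse 1 and not in mouse 2, and a difference between the mice was not called. Col1a1 (chromosome 11, 94936224 to 94953042) was at 838 and 76.7 CPM in MG1 and 2883 and 3650.2 in MG2 against 3107, 5076, 2428, 2152 and 3108 in MT1 and 5679, 2388 and 6075 in MT2. Its log2 fold changes were 2.44 (SE 0.54) (adjusted p 0.00139) and 0.41 (SE 0.50) (adjusted p 0.617), and the difference between the mice did not pass the test (adjusted p 0.115). Col1a2 (chromosome 6, 4504814 to 4541544) was at 3398 and 682 in MG1 and 6511 and 8445 in MG2, and in the tumors at 12154, 13754, 12039, 12032 and 15339.9 in MT1 and 15426, 10284 and 14945 in MT2, with 2.39 (SE 0.43) and 0.73 (SE 0.41) (adjusted p 0.000188 and 0.221, and 0.111 for the difference). The mouse 1 gain depended on the gland library, since for Col1a1 it was 4.83 without MG1 replicate 1 and 1.56 without MG1 replicate 2, and for Col1a2 3.72 and 1.57. The Col1a1 libraries of MT2 overlapped with those of MG2.

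Of 15 tested basement membrane and microfibril collagen and laminin genes, 2 rose and 2 fell in MT1 and 4 rose and 4 fell in MT2 (subtracted, 2 and 2, and 5 and 3), where all genes had 14.5% higher and 18.3% lower in mouse 1 and 8.23% and 11.6% in mouse 2. Col6a3 (a chain of type VI collagen, which forms beaded microfibrils, chromosome 1, 90765923 to 90843971) was at 201 and 59.7 CPM in MG1 and 451 and 394 in MG2 against 1036, 720.3, 848, 635 and 1162 in MT1 and 1962, 1007 and 1957 in MT2, and rose by log2 2.30 (SE 0.40) and 1.84 (SE 0.37) (adjusted p 0.000126 and 0.000789). Without MG1 replicate 1 the first was 3.30. Lama2 (the laminin chain of basement membranes around mesenchymal cells) fell by log2 1.90 (SE 0.39) and 2.18 (SE 0.38) (adjusted p 0.000806 and 0.000168), from 266 to 443 CPM in the glands to 33.6 to 183 in the tumors.

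Of 35 tested matrix glycoproteins and proteoglycans, 14 rose and 7 fell in MT1, beside 14.5% and 18.3% of all genes, and 7 rose and 12 fell in MT2, beside 8.23% and 11.6% (subtracted, 13 and 7, and 9 and 9). Postn (periostin, a matricellular protein of activated fibroblasts, chromosome 3, 54361109 to 54391037) was at 1829 and 17.0 CPM in MG1 and 1359.7 and 1628 in MG2, and in the tumors at 3815, 6620.0, 4922, 6898 and 4979 in MT1 and 4904, 2908 and 5492 in MT2. The tumors lay above the glands in both mice, and the test was passed in mouse 1 (log2 2.26 (SE 0.65), adjusted p 0.00954) and not in mouse 2 (log2 1.44 (SE 0.65), adjusted p 0.12, a difference not called between the mice with adjusted p 0.691). The mouse 1 value was 7.74 without MG1 replicate 1 and 1.23 without MG1 replicate 2, and its adjusted p by DESeq2 was 0.0611. In mouse 2 the adjusted p was 0.00201 and 0.000924 when either MG1 library was left out of the shared fit. Spp1 (osteopontin, a secreted phosphoprotein) was at 88.5 and 179 CPM in MG1 and 266 and 50 in MG2 against 1635, 1321, 6552, 1111 and 3209.5 in MT1 and 1749, 3551 and 2276 in MT2, and rose by log2 4.20 (SE 0.70) and 3.89 (SE 0.69) (adjusted p 8.8e-05 and 0.000197). The other cells held 1525 CPM of it in MT1, under the 2965 of the fibroblasts, and 3613 in MT2, over the 2350 of the fibroblasts. With other-cell RNA subtracted the rise was called in both mice, and its size moved to 11.33 and 7.01, which depends on the prior count where a group falls to 0. Wisp1 (a matricellular protein of the CCN family) was 34.4-fold higher (95% counting interval 8.90 to 294) in MT1 (2 UMIs in MG1, adjusted p 8.8e-05), and rose by log2 1.92 (SE 0.50) in MT2 (adjusted p 0.00702, or 0.184 without MG2 replicate 1).

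Among matrix proteases and their inhibitors, 11 of 24 tested rose and 4 fell in MT1, and 4 rose and 3 fell in MT2 (subtracted, 11 and 4, and 5 and 2), against shares of 14.5% and 18.3%, and 8.23% and 11.6%, over all genes. Mmp10 and Mmp3, stromelysins that lie beside Mmp13 on chromosome 9 (7502352 to 7510240 and 7445822 to 7455975), moved differently. Mmp10 had 0 UMIs in the glands and 0, 137, 116, 52.9 and 0 CPM in MT1, with 2 of the 5 libraries at 0, and 564, 285 and 683 in MT2, at least 10.6-fold and 58.9-fold higher (adjusted p 0.00207 and 1.48e-06). Mmp3 was already at 1652 and 1049 CPM in MG1 and 1838 and 2433 in MG2, and was at 164, 360.2, 865, 794 and 455 in MT1 and 1536, 1666 and 1029 in MT2. It decreased by log2 1.54 (SE 0.35) in mouse 1 (adjusted p 0.00164, and -0.94 with adjusted p 0.246 in the low-background subset), with -0.73 (SE 0.36) in mouse 2 (adjusted p 0.158). Timp1 (an inhibitor of metalloproteinases, chromosome X, 20870166 to 20874735) was at 47.7 and 68.2 CPM in MG1 and 266 and 233 in MG2, and in the tumors at 1036, 840.4, 1397, 1517 and 1061 in MT1 and 904, 1275 and 906 in MT2, and rose by log2 4.12 (SE 0.39) and 1.90 (SE 0.33) (adjusted p 9.02e-08 and 0.000123). The other cells of MT2 held 1382 CPM of Timp1, above the fibroblasts, and those of MT1 156.

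Contractile and myofibroblast genes rose in mouse 1 and largely did not pass the test in mouse 2. In MT1 14 of 15 tested genes rose and none fell (22 in the list), with a median log2 fold change of 1.53, and in MT2 3 rose and none fell with a median of 0.89, beside 14.5% and 8.23% of all genes higher. In the difference between the mice 1 of the 15 was called, with the higher change in mouse 1, beside 2.74% of all genes in that direction and 1.06% in the other. In the low-background subset all 15 rose in MT1 and 2 in MT2. Acta2 (smooth muscle actin, chromosome 19, 34241090 to 34255590) was at 27.2 and 17.0 CPM in MG1 and 88.8 and 22.2 in MG2 against 818, 703, 266, 423 and 480.2 in MT1 and 160.4, 229 and 96.5 in MT2. The tumor libraries did not overlap with the glands in either mouse, with log2 fold changes of 4.09 (SE 0.56) (adjusted p 1.02e-05) and 1.44 (SE 0.52) (adjusted p 0.0526, and 0.0155 with other-cell RNA subtracted). The mouse 2 value was 2.65 (adjusted p 0.0276) without MG2 replicate 1 and 0.68 (0.61) without MG2 replicate 2. The other cells of the glands held more Acta2 (65.4 and 102 CPM) than the gland fibroblasts. Cnn2 (calponin 2, an actin-binding protein) rose by log2 3.17 (SE 0.56), or 7.56 without MG1 replicate 1, and 2.07 (SE 0.54) (adjusted p 0.000159 and 0.00694, and 0.0538 and 0.172 in mouse 2 without MG2 replicate 1 or 2 and 0.0506 in the low-background subset). Thy1 (CD90, a surface glycoprotein of fibroblasts) was at 198 and 68.2 CPM in MG1 and 307 and 289 in MG2, and in the tumors at 327, 497, 549, 406 and 556 in MT1 and 527, 229 and 635 in MT2, with log2 1.45 (SE 0.41) (adjusted p 0.00864, 0.121 without MG1 replicate 2, and a change of 2.28 without MG1 replicate 1) and 0.53 (SE 0.38) (adjusted p 0.362). Lrrc15, described above, belongs to this list too.

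Of 18 tested adventitial fibroblast genes (21 in the list), 13 fell and none rose in MT1 and 14 fell and none rose in MT2, 12 of them in both, beside 18.3% and 11.6% of all genes lower, with median log2 fold changes of -2.12 and -2.52. The counts lower were 13 in each mouse with other-cell RNA subtracted, and 14 and 12 in the low-background subset. Pi16 (a peptidase inhibitor that marks adventitial fibroblasts, chromosome 17, 29317680 to 29330593) was at 463 and 631 CPM in MG1 and 506 and 839 in MG2 against 109, 377, 83.1, 159 and 25.3 in MT1 and 52.4, 89.5 and 104 in MT2, falling by log2 2.01 (SE 0.44) and 3.18 (SE 0.44) (adjusted p 0.00122 and 9.2e-06). The gland and tumor libraries did not overlap in either mouse. Procr (the endothelial protein C receptor, chromosome 2, 155751117 to 155755471) fell from 483 to 779.8 CPM in the gland libraries to 12.3 to 202 in the tumor libraries, by log2 3.33 (SE 0.48) and 3.71 (SE 0.49). Gfpt2 (an enzyme of hexosamine synthesis) fell by 2.91 (SE 0.32) and 2.70 (SE 0.33) and Has1 (a hyaluronan synthase) by 2.32 (SE 0.39) and 2.47 (SE 0.42) on the log2 scale, with adjusted p between 7.43e-07 and 0.000123. For Has1 in mouse 1 the value was -1.25 without MG1 replicate 2. Cd34 (a surface sialomucin, chromosome 1, 194938819 to 194961279) fell by 1.82 (SE 0.42) and 2.59 (SE 0.47) (adjusted p 0.00203 and 0.000262), and was not called without MG1 replicate 1 (adjusted p 0.0581) or MG2 replicate 2 (0.0535).

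Of 20 tested genes of parenchymal and fat-associated fibroblasts, 4 rose and 8 fell in MT1 and 1 rose and 12 fell in MT2, where all genes also had more lower than higher calls (14.5% and 18.3%, and 8.23% and 11.6%). In the difference 5 were called, all with the higher change in mouse 1, beside 2.74% of all genes in that direction and 1.06% in the other. The counts were 3 and 6, and 1 and 9, with other-cell RNA subtracted and 2 and 5, and 1 and 9, in the low-background subset, where the MT1 median was 0.08 against -0.51. Lpl (lipoprotein lipase, chromosome 8, 68880491 to 68907448) was at 402 and 179 CPM in MG1 and 916 and 1106 in MG2, and in the tumors at 109, 172, 116, 52.9 and 50.5 in MT1 and 216, 61.5 and 227 in MT2, falling by log2 1.82 (SE 0.47) and 2.66 (SE 0.39) (adjusted p 0.0044, 0.0849 without MG1 replicate 1, and 1.85e-05).

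All 11 tested complement genes (15 in the list) fell in MT2, and 6 fell and none rose in MT1, beside 11.6% and 18.3% of all genes lower, with medians of -2.63 and -1.25. The counts were 8 and 6 with other-cell RNA subtracted and 6 and 4 in the low-background subset, where fewer genes were tested. C3 (the central complement component, chromosome 17, 57203970 to 57228136) was at 1362 and 2054 CPM in MG1 and 2883 and 2933 in MG2 against 164, 480.2, 299, 229 and 429.6 in MT1 and 55.5, 145 and 156 in MT2. It fell by log2 2.63 (SE 0.34) and 4.77 (SE 0.38) (adjusted p 4.19e-06 and 5.72e-09). C4b (a component of the classical complement pathway, chromosome 17, 34728380 to 34743882) was at 375 and 1509 in MG1 and 1414 and 1600.1 in MG2, and in the tumors at 164, 292, 183, 88.2 and 202 in MT1 and 43.2, 129 and 92.8 in MT2. It fell by 2.58 (SE 0.44) and 4.28 (SE 0.46) on the log2 scale (adjusted p 0.000118 and 3.05e-07), with -1.33 in mouse 1 without MG1 replicate 2. Serping1 (the inhibitor of C1) fell by log2 2.90 (SE 0.33) in mouse 2 (adjusted p 4.95e-07), and was at 787 and 1432 CPM in MG1 and 491, 823, 715, 1147 and 682 in MT1, where the test was not passed (adjusted p 0.0537). For both C3 and C4b every tumor library lay under every gland library of the same mouse.

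Of 32 tested cytokine and inflammatory genes, 3 rose and 14 fell in MT2, beside 8.23% and 11.6% of all genes. In MT1 4 rose and 8 fell, beside 14.5% and 18.3% of all genes. In the difference 8 were called, all with the higher change in mouse 1, beside 2.74% of all genes in that direction and 1.06% in the other. With other-cell RNA subtracted the counts were 1 and 10 in mouse 2 and 5 and 8 in mouse 1, and in the low-background subset 2 and 11, and 7 and 5. Ccl2 (a chemokine that attracts monocytes, chromosome 11, 82035571 to 82037453) was at 1348 and 1202 CPM in MG1 and 2863 and 3906 in MG2 against 2562, 3018, 1846, 2911 and 2628 in MT1 and 651, 1174 and 1099 in MT2. It dropped by log2 1.94 (SE 0.30) in mouse 2 (adjusted p 3.37e-05), and in mouse 1 the log2 change of 0.72 (SE 0.29) did not pass the test (adjusted p 0.0572, and 0.00603 in the low-background subset). The other cells of MT2 held 818 CPM of it. Ccl7 (a related chemokine in the same cluster, 82045712 to 82047525) followed, with log2 0.75 (SE 0.32) and -1.60 (SE 0.33) (adjusted p 0.0766 and 0.00106, the latter 0.0526 without MG2 replicate 2). Cxcl12 (the ligand of CXCR4, chromosome 6, 117168535 to 117181367) was at 344 and 256 in MG1 and 608 and 833 in MG2, and in the tumors at 109, 309, 199.5, 335 and 278 in MT1 and 49.4, 83.9 and 74.3 in MT2, and fell by log2 3.53 (SE 0.34) in mouse 2 (adjusted p 7.54e-08). The change of Ccl2, Ccl7 and Cxcl12 was unlike in the mice by the same test (adjusted p 0.00028, 0.00389 and 0.000328).

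Cxcl14 (a chemokine of epithelia and fibroblasts, chromosome 13, 56288643 to 56296551) was called in opposite directions. It was at 272 and 332 CPM in MG1 and 382, 1835, 2893, 1499.6 and 935 in MT1, a rise of log2 2.13 (SE 0.47) (adjusted p 0.00134). In mouse 2 it was at 731 and 1300.1 in MG2 and 244, 291 and 234 in MT2, a fall of 2.12 (SE 0.44) on the log2 scale (adjusted p 0.001, and -1.67 with adjusted p 0.0669 without MG2 replicate 2). Il6 (interleukin 6) was at 459.7 and 1006 in MG1 and 1769.6 and 2250.1 in MG2 against 218, 720.3, 382, 318 and 303 in MT1 and 222, 129 and 178 in MT2. It decreased by log2 3.61 (SE 0.38) in mouse 2 (adjusted p 2.04e-07), while the fall of 1.10 (SE 0.36) in mouse 1 (adjusted p 0.0225) was -1.80 without MG1 replicate 1 and not called without MG1 replicate 2 (-0.50) or without MT1 replicate 4 or 5 (adjusted p 0.0591 and 0.0506), and not called with the sign turned in the low-background subset (0.09). Il1rl1 (ST2, the receptor of interleukin 33, chromosome 1, 40429570 to 40465415) rose, from 6.81 and 0 CPM in MG1 and 20.5 and 189 in MG2 to 109, 240.1, 166, 212 and 202 in MT1 and 657, 582 and 728 in MT2. It was 40.6-fold higher (95% counting interval 10.6 to 345) in mouse 1, where the fitted log2 change went from 4.87 to 7.48 without MG1 replicate 1, and rose by log2 2.45 (SE 0.46) in mouse 2 (adjusted p 9.2e-05 and 0.000307), or 1.64 and 4.79 without MG2 replicate 1 or 2. Tnfaip6 (a hyaluronan-binding protein induced by TNF) fell by 1.76 (SE 0.38) and 1.69 (SE 0.42) on the log2 scale (adjusted p 0.00116 and 0.00534). Its change in mouse 1 was -1.05 without MG1 replicate 2, and in mouse 2 it was not called with other-cell RNA subtracted (adjusted p 0.0686) or without MG2 replicate 2 (0.051).

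Of 23 tested antigen presentation and interferon genes, 10 rose and 1 fell in MT1 and 1 rose and 5 fell in MT2, where all genes had 14.5% and 18.3%, and 8.23% and 11.6%. In the difference 4 were called, all with the higher change in mouse 1, beside 2.74% of all genes. After the subtraction 8 rose and none fell in MT1 and 1 rose and 2 fell in MT2, where the median log2 change turned from -0.28 to 0.17. In the low-background subset, with 15 tested, 4 rose in MT1 and 2 fell in MT2. H2-K1 (a class I heavy chain, chromosome 17, 33996017 to 34000347) was at 531 and 494 CPM in MG1 and 635 and 683 in MG2, and in the tumors at 1581, 789, 2129, 1535 and 2123 in MT1 and 238, 285 and 256 in MT2. It rose by log2 1.36 (SE 0.32) in mouse 1 and fell by 1.48 (SE 0.33) in mouse 2 (adjusted p 0.00232 and 0.00181). The other cells moved the same way, from 1058 CPM in MG1 to 3176 in MT1 and from 1377 in MG2 to 154 in MT2. The rise was not called in the low-background subset (0.86, adjusted p 0.0673) nor the fall with other-cell RNA subtracted (-0.96, adjusted p 0.0719).

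All tested genes had 14.5% higher and 18.3% lower in mouse 1 and 8.23% and 11.6% in mouse 2, and the lists of signaling genes are given beside these shares. Of 17 tested growth factors and receptors 4 rose and 4 fell in MT1 and 5 rose and 7 fell in MT2 (subtracted, 6 and 2, and 4 and 5), with the MT1 median at -0.50, or 1.12 subtracted. Of 24 tested TGF-beta and BMP genes 3 rose and 4 fell in MT1 and 4 rose and 7 fell in MT2 (subtracted, 3 and 4, and 4 and 5, and in the low-background subset 3 and 3, and 3 and 2). Inhba (the activin A subunit, chromosome 13, 16011851 to 16031621) was at 143 and 42.6 CPM in MG1 and 13.7 and 27.8 in MG2 against 763, 2127, 1646, 1076 and 1087 in MT1 and 1570.0, 1314 and 1181 in MT2, a rise of log2 3.46 (SE 0.44) and 5.81 (SE 0.58) (adjusted p 4.19e-06 and 8.4e-08). The other cells held 269 CPM in MT1 and 1531 in MT2, so that in MT2 the fibroblasts did not exceed them. With other-cell RNA subtracted Inhba was called in both mice (log2 3.52 and 5.85). Ereg (epiregulin, a ligand of the EGF receptor, chromosome 5, 91074622 to 91093646) was at 3.41 and 0 in MG1 and 61.5 and 61.1 in MG2, and in the tumors at 0, 51.5, 83.1, 0 and 75.8 in MT1 and 765, 414 and 802 in MT2, against 1.84 CPM in the other cells of MT2. It rose by log2 3.30 (SE 0.47) in mouse 2 (adjusted p 1.38e-05) and was 19.4-fold higher (95% counting interval 2.82 to 835) in mouse 1 (1 UMI in MG1, adjusted p 0.0135, 0.0749 without MG1 replicate 1 and 0.0526 without MT1 replicate 3). Egfr (its receptor) fell by log2 2.30 (SE 0.47) and 1.82 (SE 0.40) (adjusted p 0.000713 and 0.00164, the latter 0.0807 without MG2 replicate 2). Grem1, whose levels are given above, was at least 11.2-fold higher in MT1 (adjusted p 0.000422) and 74.6-fold higher (95% counting interval 20.5 to 618.2) in MT2 (2 UMIs in MG2, adjusted p 8.6e-07, and a fitted log2 change of 5.95, or 5.14 and 8.99 without MG2 replicate 1 or 2), where the other cells held more of it.

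In the IGF axis 4 of 10 tested genes rose and 1 fell in MT1, and 1 rose and 2 fell in MT2, the latter near the 8.23% and 11.6% of all genes. Igfbp7 (an IGF-binding protein also deposited in matrix, chromosome 5, 77349240 to 77408041) was at 487 and 750.2 CPM in MG1 and 1578 and 1767 in MG2 against 3706, 3121, 4407, 2805 and 4372 in MT1 and 953, 1208 and 965 in MT2. It rose by log2 2.28 (SE 0.32) in mouse 1 (adjusted p 1.11e-05), with -0.82 (SE 0.29) in mouse 2 (adjusted p 0.0512). Igfbp6 (a binding protein of IGF2) fell by log2 2.70 (SE 0.43) and 2.78 (SE 0.49) (adjusted p 6.03e-05 and 0.000186). Of 9 tested Wnt genes 3 rose and none fell in MT1 and 2 rose and 1 fell in MT2. Of 18 tested fibroblast transcription factors none rose and 8 fell in MT1 and 1 rose and 5 fell in MT2 (subtracted, 2 and 7, and 1 and 3, and in the low-background subset 1 and 7, and 1 and 2).

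Of 15 tested hypoxia and glycolysis genes, 7 rose and 2 fell in MT1 and 8 rose and 2 fell in MT2 (14.5% and 18.3%, and 8.23% and 11.6%, of all genes). The counts were 5 and 2, and 4 and 1, with other-cell RNA subtracted and 6 and 2, and 1 and 1, of 11 tested in the low-background subset. In mouse 2 most of the calls of the list were lost there, where 89 genes were higher and 159 lower of all 1790 tested outside the rule. The median of the list in mouse 2 was 0.88 there, against 1.40. Pkm (pyruvate kinase, chromosome 9, 59656368 to 59679375) rose by log2 2.29 (SE 0.35) and 1.33 (SE 0.33) (adjusted p 4.05e-05 and 0.00502) and Aldoa (aldolase A) by 2.10 (SE 0.46) and 2.07 (SE 0.43) (adjusted p 0.00139 and 0.0011). Both were higher in the other cells of each tumor than in the fibroblasts, with Pkm at 1124 and 587 CPM against 502 and 401. In the low-background subset neither was called in mouse 2 (adjusted p 0.145 and 0.0511), and Aldoa was not called in mouse 1 without MG1 replicate 1 (0.0822) nor Pkm in mouse 2 without MG2 replicate 1 (0.129), without MG2 replicate 2 (0.0555) or with other-cell RNA subtracted (0.0521). Aldoa in mouse 2 had adjusted p 0.0504 without MG2 replicate 1. Hk2 (hexokinase 2, chromosome 6, 82725025 to 82774454) went the other way, from 1059 and 1168 CPM in MG1 and 854 and 1022 in MG2 to 382, 274, 299, 388 and 152 in MT1 and 163, 157 and 230.2 in MT2. It fell by log2 2.20 (SE 0.28) and 2.47 (SE 0.30) (adjusted p 4.54e-06 and 1.19e-06).

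The next lists are again to be set beside 14.5% higher and 18.3% lower of all genes in mouse 1 and 8.23% and 11.6% in mouse 2. Of 20 tested antioxidant and metallothionein genes 3 rose and 7 fell in MT1 and 1 rose and 5 fell in MT2 (subtracted, 2 and 5, and none and 2, and in the low-background subset 2 and 5, and none and 3). Gstm1 (a glutathione S-transferase, chromosome 3, 108012255 to 108017973) fell by log2 3.01 (SE 0.41) and 2.61 (SE 0.46) (adjusted p 1.03e-05 and 0.000188). Of 29 tested immediate early and heat shock genes, which respond to tissue dissociation as well as to growth signals, 2 rose and 11 fell in MT1 and 1 rose and 12 fell in MT2. The 12 became 7 with other-cell RNA subtracted and 3 of 27 in the low-background subset, and the 11 of mouse 1 became 8 and 10. The median of the list in mouse 2 went from -0.99 to -0.77 and -0.74 in these 2 settings. Calls of mouse 2 over all genes went from 695 to 420 and 249. Of 20 tested secretory pathway and ER stress genes 7 rose and 2 fell in MT1 and 3 rose and 1 fell in MT2. In the low-background subset of mouse 2 none of either was called, with a median log2 change of 0.37 against 0.27. Of 24 tested S100 and actin-regulator genes 10 rose and none fell in MT1 and 3 rose and 1 fell in MT2. Of 25 proliferation genes only 7 had enough counts to test, of which 4 rose in MT1 and 1 in MT2. With other-cell RNA subtracted only 5 were tested, of which 1 rose in MT1 and none in MT2. Of 6 tested mitochondrial transcripts none was called in MT1 and 4 rose in MT2.

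**Figure D3:**
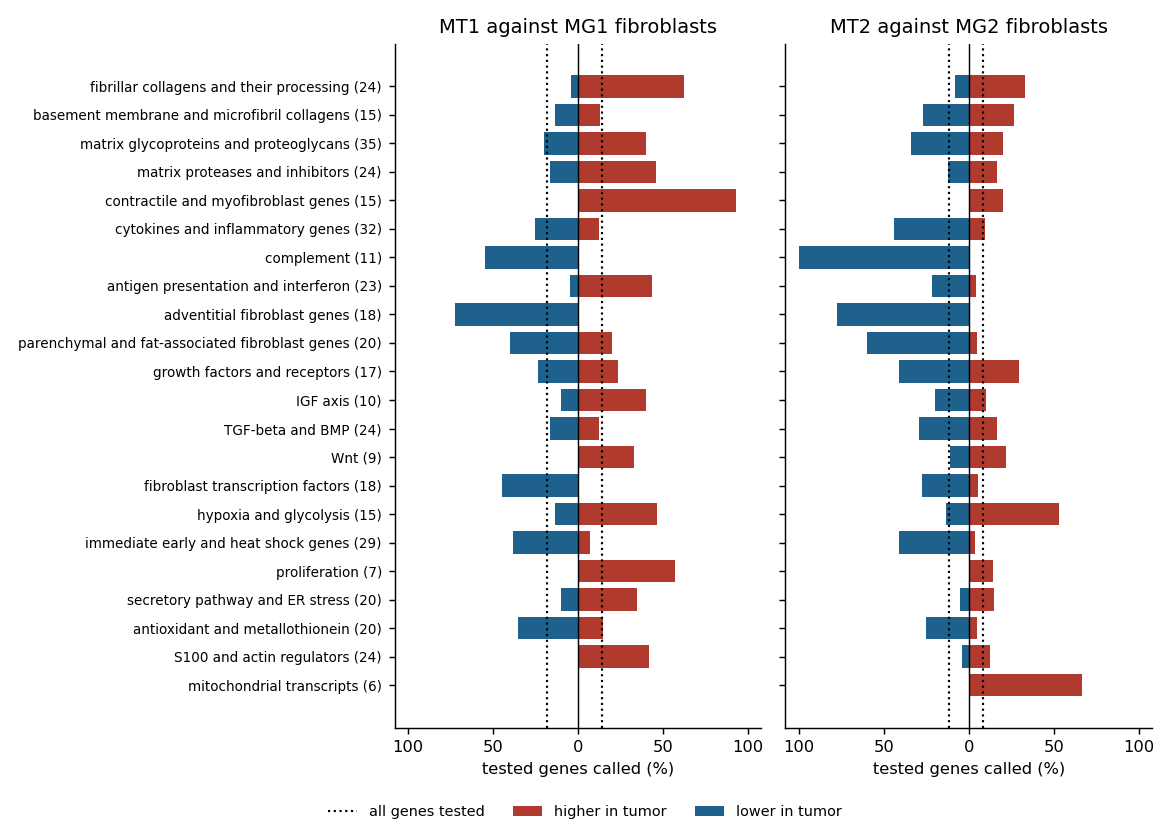
Share of the tested genes of each list called higher (right, red) or lower (left, blue) in tumor than in gland fibroblasts, in mouse 1 (left panel) and mouse 2 (right panel), in percent, with the number tested in parentheses. Dotted lines mark the shares over all 3500 tested genes (14.5% and 18.3% in mouse 1, 8.23% and 11.6% in mouse 2). Fibrillar collagens extend to the right of the line in both panels, adventitial and complement genes to the left.

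The change from gland to tumor differed between the mice in 133 of 3500 genes, 96 (2.74%) with the higher change in mouse 1 and 37 (1.06%) with the higher change in mouse 2. The count was 55 without MG2 replicate 1, 51 without MG2 replicate 2 and 313 without MG1 replicate 1, and 57 with other-cell RNA subtracted. The excess in mouse 1 turned without MG1 replicate 1, with 136 genes higher in mouse 1 and 177 in mouse 2, and was 91 against 82 without a filter on low counts. Of the 133 genes, 1 belongs to the rule. The labels give no batch, and the libraries of the mice bear names of different form, so a batch and the mouse cannot be told apart. Values below are changes in mouse 1 minus changes in mouse 2, named by the size of this difference among 82 genes with at least 50 CPM in a group and above the other cells. A difference with a group at 0 depends on the prior count of the fit.

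Among the highest differences were those in Comp, C1qtnf3, Igfbp2 and Bdkrb1. Comp (cartilage oligomeric matrix protein, chromosome 8, 70373558 to 70382066) was at 82.0 and 83.3 CPM in MG2 and 0 in MT2, at least 21.3-fold lower (adjusted p 0.000241), while it was at 0 in MG1 and at 54.5, 17.2, 0, 0 and 0 in MT1, 2 UMIs in all. Its difference (adjusted p 0.0407) was not called without MT1 replicate 1 (0.128) or replicate 2 (0.116). Igfbp2 (an IGF-binding protein, chromosome 1, 72824503 to 72852474) was at 6.81 and 8.52 in MG1 and 34.2 and 88.9 in MG2 against 54.5, 1218, 732, 176 and 152 in MT1 and 49.4, 5.59 and 11.1 in MT2. It was 77.6-fold higher (95% counting interval 26.0 to 381) in mouse 1, with a difference of log2 7.19 (SE 1.42) (adjusted p 0.00361, 0.158 without MG2 replicate 2). Bdkrb1 (the bradykinin B1 receptor, chromosome 12, 105603085 to 105605428) had 0 UMIs in MG1 and 54.5, 51.5, 149.7, 52.9 and 50.5 CPM in MT1, at least 10.6-fold higher, against 75.2 and 38.9 in MG2 and 92.5, 89.5 and 74.3 in MT2 (difference adjusted p 0.0174, 0.0613 with other-cell RNA subtracted and 0.112 and 0.11 without MG1 replicate 1 or MG2 replicate 1).

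The 5 lowest differences were in Col6a5, Nov, Ankrd1, Rps15a-ps7 and Hmox1, and the first 3 rested on MG1 replicate 1. Col6a5 (a type VI collagen chain, chromosome 9, 105856078 to 105960643) was at 1001 and 0 CPM in MG1 and 0 in MT1, and at 6.83 and 11.1 in MG2 and 102, 16.8 and 100.3 in MT2. Without MG1 replicate 1 nothing was left of its call (difference adjusted p 0.00479 with and 1 without). Nov (the CCN3 matricellular protein) was at 85.1 and 8.52 in MG1 and 6.83 and 5.56 in MG2, and in the tumors at 0, 17.2, 33.3, 17.6 and 25.3 in MT1 and 117, 67.1 and 163 in MT2, 19.9-fold higher (95% counting interval 5.35 to 166) in mouse 2 (2 UMIs in MG2, adjusted p 0.000895). Its difference had adjusted p 0.00407, and 0.449 without MG1 replicate 1. Ankrd1 (a stretch-responsive repeat protein, chromosome 19, 36111961 to 36120099) was at 334 and 17.0 in MG1 and 13.7 and 11.1 in MG2 against 0, 85.8, 16.6, 0 and 152 in MT1 and 24.7, 179 and 78.0 in MT2 (difference adjusted p 0.045, 0.709 without MG1 replicate 1). Its fall in mouse 1 alone was -2.16 (SE 0.80) on the log2 scale (adjusted p 0.0388), and 1.06 without MG1 replicate 1, and was not called in the low-background subset (adjusted p 0.0836) or by DESeq2 (0.279). Rps15a-ps7 (annotated as a ribosomal protein pseudogene, whose reads may come from its parent gene) was at 112 and 392 in MG1 and 253 and 183 in MG2, and in the tumors at 0, 17.2, 16.6, 0 and 0 in MT1 and 133, 67.1 and 149 in MT2.

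**Figure D4:**
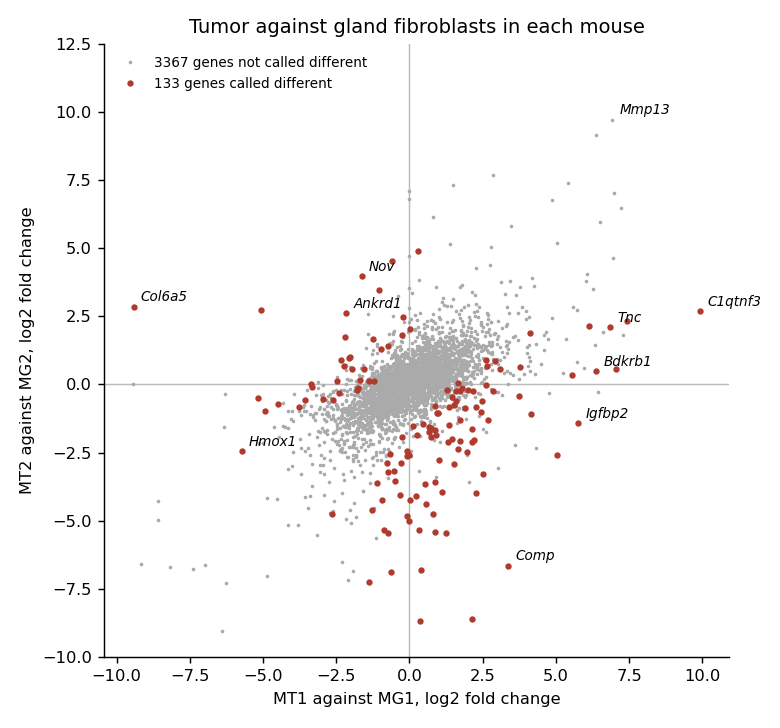
Log2 fold change of tumor against gland fibroblasts in mouse 1 (horizontal) and mouse 2 (vertical) for 3500 genes, the 5 rule genes included. Red points are the 133 genes whose change differed between the mice and gray points the others. Comp and Igfbp2 lie right and low, Nov and Col6a5 left and high, and Mmp13 is far up in both mice.

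Of 35 tested matrix glycoproteins and proteoglycans 12 were called in the difference, 9 with the higher change in mouse 1. Over all genes the shares were 2.74% with the higher change in mouse 1 and 1.06% with the higher change in mouse 2. Of 24 fibrillar collagen and processing genes none was called, which is near those shares. Smoc2 (a calcium-binding matrix protein, chromosome 17, 14279506 to 14404790) was at 133 and 102 CPM in MG1 and 492 and 733 in MG2 against 54.5, 223, 66.5, 229 and 227 in MT1 and 58.6, 5.59 and 40.8 in MT2. It dropped by log2 4.09 (SE 0.45) in mouse 2 (adjusted p 4.72e-07), with a difference of 4.31 (SE 0.68) (adjusted p 0.00028, and 2.69 with 0.0703 under a stricter rule for the cells). Sparcl1 (a counterpart of Sparc, chromosome 5, 104079111 to 104113733) was at 1015 and 1049 in MG1 and 465 and 456 in MG2, and in the tumors at 436, 755, 715, 794 and 607 in MT1 and 18.5, 5.59 and 7.43 in MT2. It fell in both mice, by log2 0.88 (SE 0.27) and 5.34 (SE 0.42) (adjusted p 0.0154, 0.305 in the low-background subset, and 5.72e-09), with a difference of 4.46 (SE 0.53) (adjusted p 9.71e-06). Sparc (a collagen-binding glycoprotein, chromosome 11, 55394500 to 55423183) was at 1934 and 289.8 in MG1 and 4728 and 6417 in MG2 against 11336, 10444, 13137, 11432 and 12282 in MT1 and 9553, 6828 and 10459.9 in MT2. It rose by log2 3.09 (SE 0.47) in mouse 1 (adjusted p 3.55e-05; without MG1 replicate 1 or 2, 4.79 or 2.22), with 0.56 (SE 0.43) in mouse 2 (adjusted p 0.394). Eln (elastin, chromosome 5, 134702593 to 134747323) was called in opposite directions, at 81.7 and 42.6 in MG1, 273, 274, 233, 176 and 177 in MT1, 150.3 and 267 in MG2 and 70.9, 16.8 and 74.3 in MT2. Its changes of 1.45 (SE 0.46) and -1.99 (SE 0.42) were lost without MG1 replicate 2 (adjusted p 0.105) and without MG2 replicate 2 (0.117), while the difference had adjusted p 0.00155.

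Mrc2, an endocytic receptor for collagen fragments, was read because the study examined it in tumor cells. In the fibroblasts it was at 37.5 and 8.52 CPM in MG1 and 68.3 and 77.8 in MG2, and in the tumors at 164, 154, 116, 70.6 and 101 in MT1 and 114, 83.9 and 92.8 in MT2, against 1.72 CPM in the other cells of MT1 and 16.9 in those of MT2. Its log2 fold changes were 1.78 (SE 0.53) (adjusted p 0.0126, 0.113 without MG1 replicate 2, and a change of 3.14 without MG1 replicate 1) and 0.29 (SE 0.43) (adjusted p 0.686).

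With the mouse as the replicate, a fit of 4 sums (MG1, MG2, MT1 and MT2) with the mouse as block called 19 of 5080 genes higher (0.374%) and 29 lower (0.571%), of which 47 were also called with the same sign in both mice over libraries. Without the block it called 10. Among the 20 genes named as shared, those called here were Mmp13, Prss35, Hs6st2, Serpine2 and Col8a1 higher and all but Hmox1 of the 10 lower ones. Also called were Col12a1 and Loxl3 (adjusted p 0.0391 and 0.0449), Mmp10, Spp1, Inhba, Ereg and Grem1 as higher and Pcolce2, Procr, Gfpt2, Igfbp6 and Gstm1 as lower. Tnc, with adjusted p 0.109, and Lrrc15, with 0.0891, were not called in this fit of 2 animals. Of the lists, the adventitial genes had 5 called lower and none higher.

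The share of fibroblasts with a transcript was compared after each cell was thinned to 1000 UMIs, which no fibroblast fell short of. Postn was found in 30.9% of MG1, 13.8% of MG2, 77.7% of MT1 and 91.5% of MT2 fibroblasts. In the glands the Postn UMIs thus sat in a minority of fibroblasts, while in the tumors most fibroblasts held some. Tnc was in 0% of MG1, 8.13% of MG2, 59.2% of MT1 and 61.4% of MT2. Mmp13 was in 0%, 0.813%, 5.83% and 52.9%, a minority of MT1 and about as many MT2 fibroblasts with as without it. Clec3b ran the other way, in 66.0% of MG1, 44.7% of MG2, 2.91% of MT1 and 1.54% of MT2. Gsn (gelsolin, an actin-severing protein) was in 97.9%, 74.8%, 41.7% and 13.5%, and C3 in 62.9%, 75.6%, 20.4% and 6.95%.

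Among the other cells at the same depth, Postn was in 6.64% of MT1 and 2.97% of MT2 cells, Mmp13 in 0.250% and 0.726%, and Clec3b in 1.94% of MG1 and 0.316% of MG2 cells. Tnc in the other MT2 cells was at 21.8%, and C3 in the other cells of MT1 and MT2 at 6.09% and 5.83%, so that the C3 share of the MT2 fibroblasts is at the level of the cells around them. Gsn in the MT2 fibroblasts was not above the other MT2 cells (15.5%). Acta2 was in 19.4% of MT1 and 10.4% of MT2 fibroblasts, with no cell of MG1 and 3.25% of MG2, and in under 1% of the other tumor cells (0.606% and 0.139%). Pi16 was in 32.0%, 31.7%, 11.7% and 4.25% of MG1, MG2, MT1 and MT2 fibroblasts. At full depth the shares were higher, with Postn in 38.1%, 16.3%, 84.5% and 98.1%, and Mmp13 in 6.80% of MT1 and 64.1% of MT2. These shares pool the libraries of a group, and cells are not replicates, so they carry no test.

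**Figure D5:**
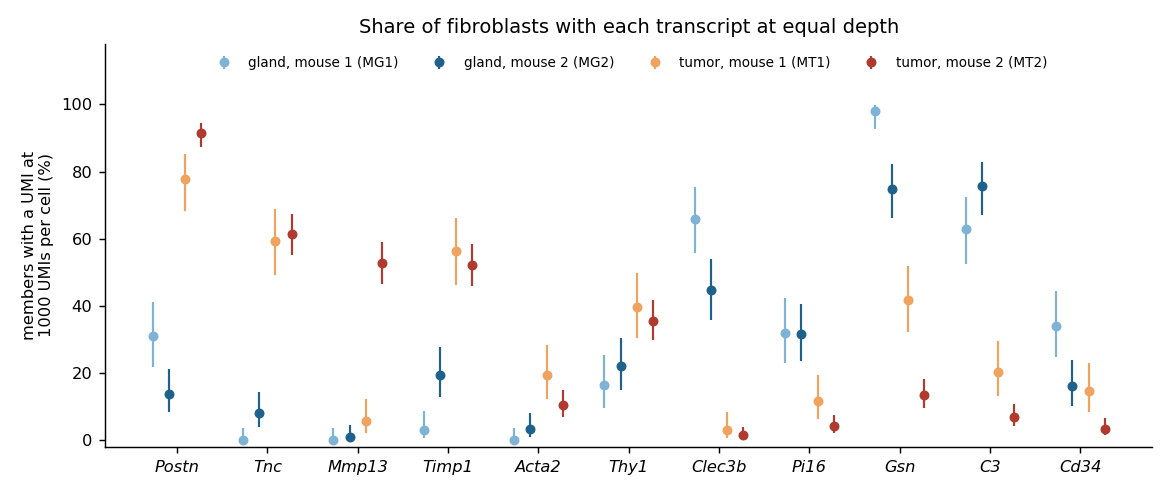
Share of fibroblasts with at least 1 UMI of each gene after thinning every cell to 1000 UMIs, in percent, for the 4 groups. Bars are exact 95% Clopper-Pearson intervals over the cells of a group and cover counting error only. Postn, Tnc and Timp1 are in more tumor than gland fibroblasts and Clec3b, Pi16, Gsn and C3 in fewer, while the other MT2 cells have Timp1 in 64.7%.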

How the data were processed

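Drop-seq counts of UMIs per gene and cell were deposited for 12 libraries of gland and tumor of 2 mice, made by the authors with Drop-seq tools and STAR on GRCm38.p6. Every cell in the tables had at least 800 genes, and 0 value columns were unassigned. Gene coordinates are those of GENCODE vM21 and promoters those of RefSeq, both on GRCm38.p6. The cells and gene lists were chosen with earlier results of these data known.

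UMIs of the chosen cells were summed per library, and genes passing filterByExpr were fitted with TMM scaling in 1 edgeR model (version 4.0.16, R 4.3.3) of 4 groups, by the quasi-likelihood F test with Benjamini-Hochberg adjustment. The SE was taken from the fold change and F (change over root F). The contrasts were MT1 against MG1, MT2 against MG2, their average and their difference. A further fit of 4 sums took the mouse as block, a pairing that comes from the mouse label. Replicate numbers follow the order of the samples and pair nothing. Levels are plain CPM. Genes named beyond the lists were the 10 highest and 10 lowest by mean change over both mice and the 5 highest and 5 lowest by difference, under the conditions given with them, and 1 of these genes is not reported here. Folds use a limit of 3 counts over a group at 0, and an exact counting interval where a group had 1 to 3 UMIs.

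RNA of other cells was subtracted per library as the median ratio of marker genes times the profile of the other cells. Alternatives were DESeq2 (version 1.42.0), RLE size factors, no low-count filter, a stricter rule (4 genes and 1%), the rule after thinning to 1000 UMIs, cells over 2 times the median UMIs left out, only the groups compared, libraries with at least 10 fibroblasts, and each library left out. The low-background subset, the subtraction by a ratio of sums and the fit without MT2 replicate 2 were chosen after seeing the data. Doublets were not removed.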

Additional observations from a re-analysis of the deposited data

Results flagged for a closer look

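In MT1, the group of 5 libraries, 7 of 84 values looked at had a library far from the others, where chance gives about 1 in 20. Replicate 2 had 2.59% of its cells in the fibroblast rule, against 1.04% to 1.46% in the others. The same library had the lowest Mfap5, 2144 CPM against 2577 to 2682, the highest Tnfaip6, 3430.1 CPM against 1031 to 1592, and Hmcn2 at 17.2 CPM against 0, which is a single UMI. Mfap5 belongs to the rule and the share of cells is set by the rule, so these values among the 7 are a description only. Replicate 3 had Bdkrb1 at 149.7 CPM against 50.5 to 54.5. Replicate 1, with the fewest fibroblasts, had Col12a1 at 272.5 CPM against 776 to 960.4 and Capza2 at 6867 CPM against 2502 to 3342.

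The change from gland to tumor differed between the mice in 133 genes, of which 27 are named here, by edgeR's test of the difference. In log2, change in mouse 1 minus change in mouse 2, the genes with the higher change in mouse 1 named by rule, with others shared by both mice, gave 10.03 for Comp (adjusted p 0.0407), 7.23 for C1qtnf3 (adjusted p 0.0174), 7.19 for Igfbp2 (adjusted p 0.00361), 5.90 for Bdkrb1 (adjusted p 0.0174), 5.09 for Ddah1 (adjusted p 0.0472), 4.74 for Tnc (adjusted p 2.76e-05) and 3.96 for Lrrc15 (adjusted p 0.0262). Genes with the higher change in mouse 2 gave -12.27 for Col6a5 (adjusted p 0.00479), -5.60 for Nov (adjusted p 0.00407), -4.77 for Ankrd1 (adjusted p 0.045), -3.94 for Rps15a-ps7 (adjusted p 0.0218) and -3.28 for Hmox1 (adjusted p 0.007). Matrix and related genes gave 4.46 for Sparcl1 (adjusted p 9.71e-06), 4.31 for Smoc2 (adjusted p 0.00028), 3.44 for Eln (adjusted p 0.00155), 2.53 for Sparc (adjusted p 0.0145), 2.21 for Timp1 (adjusted p 0.00929) and 3.10 for Igfbp7 (adjusted p 5.7e-05). Secreted immune factors, complement and H2-K1 gave 4.25 for Cxcl14 (adjusted p 0.000196), 3.03 for Cxcl12 (adjusted p 0.000328), 2.84 for H2-K1 (adjusted p 0.000332), 2.66 for Ccl2 (adjusted p 0.00028), 2.51 for Il6 (adjusted p 0.007), 2.35 for Ccl7 (adjusted p 0.00389), 2.14 for C3 (adjusted p 0.0194) and 2.14 for Serping1 (adjusted p 0.00662). Capza2, a gene of the MT1 tumor cells, gave 3.15 (adjusted p 0.00064), and 1.55 with adjusted p 0.37 in the low-background subset. The sizes for Comp, C1qtnf3, Ddah1, Bdkrb1 and Col6a5 depend on the prior count, since a group was at 0.

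Several of these calls were lost when 1 library was left out or other-cell RNA was treated differently. Without MG2 replicate 1 the adjusted p was 0.371 for C1qtnf3, 0.186 for Ddah1, 0.412 for Lrrc15 (log2 2.55), 0.0773 for Timp1, 0.0857 for C3, 0.193 for Ankrd1 and 0.0502 for Rps15a-ps7. Without MG2 replicate 2 it was 0.139 for Ddah1, 0.106 for Sparc, 0.0503 for Timp1, 0.0863 for C3, 0.0885 for Serping1, 0.0595 for Il6, 0.0559 for Ccl7, 0.237 for Ankrd1 and 0.0932 for Rps15a-ps7. Without MG1 replicate 1 it was 0.0823 for Timp1 and 0.237 for Ddah1, and without MG1 replicate 2 0.0967 for Ddah1 and 0.0667 for Rps15a-ps7. Ddah1, Ankrd1 and Rps15a-ps7 also lost the call without single tumor libraries, with adjusted p between 0.0586 and 0.117. With other-cell RNA subtracted it was 0.0618 for Lrrc15, 0.0745 for Sparc, 0.116 for Ddah1, 0.105 for Serping1, 0.126 for C3, 0.262 for Ankrd1 and 0.0718 for Capza2. In the low-background subset it was 0.281 for C1qtnf3, 0.118 for Ddah1, 0.0708 for Hmox1, 0.53 for Ankrd1 and 0.0503 for Serping1. With the subtraction by a ratio of sums the calls of Sparc (0.0513), H2-K1 (0.0536), Hmox1 (0.0547), Bdkrb1 (0.0592), Serping1 (0.0836) and C3 (0.0986) were among those lost. By DESeq2 it was 0.0832 for Col6a5, 0.0884 for Ddah1 and 0.254 for Ankrd1.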

How the results depend on the processing

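Many of the named genes were chosen from these data for large called changes, so keeping their direction was in part fixed by that choice. Of 3801 values of named genes under all alternatives, 3630 kept direction and side of the threshold, 140 lost the call, 27 gained one and 4 changed sign. The alternative of libraries with at least 10 fibroblasts left out no library, so its 170 values repeat the main fit. The 4 are Ankrd1 in mouse 1, at 0.87 under the stricter rule and, over the fits with 1 library left out, -3.01 (without MG1 replicate 2) to 1.06 (without MG1 replicate 1), and Il6 in mouse 1, at 0.090 in the low-background subset and 0.048 under the stricter rule.

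Counts of called genes moved by more than 1.5 times as follows, and the cause was not tested beyond the fewer cells or genes some settings use. Against 1149 in mouse 1, there were 659 in the low-background subset, 650 with only the groups compared, 702 with subtraction by the ratio of sums and 628 under the stricter rule. Against 695 in mouse 2, there were 249 in the low-background subset, 324 by the ratio of sums and 386 under the stricter rule, with 420 after the planned subtraction. Against 1495 for the average, in the same order they were 740, 928 and 876. Against 133 for the difference, in that order they were 65, 51 and 78, with 88 under the thinned rule and 57 after the planned subtraction. Leaving out 1 library gave 989 to 1200 in mouse 1, 298 to 966 in mouse 2, 1191 to 1580 for the average and 51 to 313 for the difference, where a group left with 1 library is assumed to vary like the others.

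The fit of 4 sums was the least stable, with 48 calls and 10 with no replicate block. It had 150 calls with DESeq2, 363 with RLE, 334 in the low-background subset, 314 under the thinned rule, 239 without cells of high UMI count, 707 without a filter, 229 and 321 after subtraction by median and by sums, and 322 under the stricter rule. Leaving out a library was not run for it. Without a filter 23.5% of the calls of mouse 1 were higher in the tumor, against 44.3%. Subtraction moved the median of all genes by 0.15 log2 in mouse 2. Of the log2 changes that kept their call, some moved by over 1.5 times. In the low-background subset these were C1qtnf3 in mouse 2 (2.70 to 4.41) and, in mouse 1, Acta2 (4.09 to 8.38), Cd34 (-1.82 to -2.83), Cxcl14 (2.13 to 3.46) and Capza2 (3.79 to 1.92). After subtraction Procr in mouse 2 moved from -3.71 to -5.67. Under the stricter rule Procr (-3.33 to -2.06) and under the thinned rule C4b (-2.58 to -1.55) moved in mouse 1. The share of fibroblasts moved to 7.82% of MG1 and 4.28% of MG2 under the thinned rule and to 5.26% of MG1, 3.55% of MG2, 0.819% of MT1 and 1.66% of MT2 under the stricter rule.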
